A study of Mus musculus with 4 samples.

Results

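Genes of the conventional type 1 dendritic cell (cDC1) were followed in LSK cells of Zfp521 knockout mice. The set was chosen by symbol and holds 10 of the 24421 genes in the count table. Irf8, Batf3 and Zbtb46 encode transcription factors of dendritic cell specification. Xcr1, Clec9a, Cadm1 and Itgae encode surface proteins, and Wdfy4, Snx22 and Rab7b encode proteins that act inside the cell. All 10 symbols were found.

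The cDC1 is the dendritic cell that takes up dead cells and displays their antigens on MHC class I molecules to killer T cells, a process called cross-presentation. It arises in bone marrow from progenitors that carry the cytokine receptor Flt3. IRF8 directs progenitors towards this fate, and BATF3 acts with IRF8 to keep Irf8 expressed as the cells mature. The chemokine receptor XCR1 and the lectin CLEC9A mark the committed and mature cell.

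LSK cells are bone marrow cells that lack lineage markers and carry both Kit and Sca-1, a fraction of stem cells and multipotent progenitors. They were sorted from Zfp521-/- mice (knockout) and from littermates labelled wild type (control), with 2 libraries in each group. The RNA came from pools of cells, and no source used here gives the age, strain or number of mice per pool. The p-values therefore measure the spread between these libraries, which may be in part technical.

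Totals ran from 17787425 to 29863594 counts. Zfp521, which encodes a zinc finger transcription cofactor, was lower in both knockout libraries, with 1561 and 1429 counts in control against 308 and 215. Of the sort's own markers, Kit was at 663 ± 64.2 CPM in control and 700 ± 3.41 CPM in knockout, and Ly6a, which encodes Sca-1, at 42.3 ± 7.60 and 52.1 ± 21.0 CPM (CPM, reads of a gene scaled to TMM-adjusted library size, mean ± SD, n = 2 each). Of 4 further genes that subdivide LSK cells, Cd34 fell (log2 fold change -0.61, adjusted p = 0.0408). Its call was lost with upper quartile normalization factors (adjusted p = 0.0648) and without each library except knockout replicate 1. Cd48 (-0.60, adjusted p = 0.106), Flt3 (0.40, adjusted p = 0.104) and Slamf1 (0.66, adjusted p = 0.264) did not pass. Control replicate 2 stood apart with 5606 counts over 4 Y-linked genes, against 9 to 14 in the other libraries, so the control group mixed a male and a female pattern. Results are therefore also given without single libraries.

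The question was whether specification factors and mature markers were raised alike in the knockout. Of the 10 cDC1 genes 7 were higher and none lower (edgeR quasi-likelihood test, Benjamini-Hochberg adjusted p under 0.05 over all 14140 genes tested), where 3.77% of all genes tested were higher and 3.01% lower. DESeq2 called the same 7 genes, where it called 6% of all genes higher. They were Irf8 and Batf3 among the factors, Xcr1, Clec9a and Cadm1 among the surface genes, and Snx22 and Rab7b among the intracellular ones. Zbtb46, Itgae and Wdfy4 did not pass. The median log2 fold change was 2.16 over the 10 genes and 0.02 over all genes tested. In 9 of the 10 genes both knockout libraries lay above both control libraries, a pattern shown by 28.8% of all genes tested.

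Batf3, Zbtb46 and Rab7b passed the filter on low counts through the knockout libraries alone. Of the 7 cDC1 genes that passed it in both control libraries, 5 were higher, and their median log2 fold change was 1.98. The number of higher genes was 3 without control replicate 1, 2 without control replicate 2, 5 without knockout replicate 1 and 5 without knockout replicate 2. Xcr1 and Clec9a were the genes that passed in each of these 4 fits. In bulk libraries, more cells of a type and more RNA per cell cannot be told apart.

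**Figure D1:**
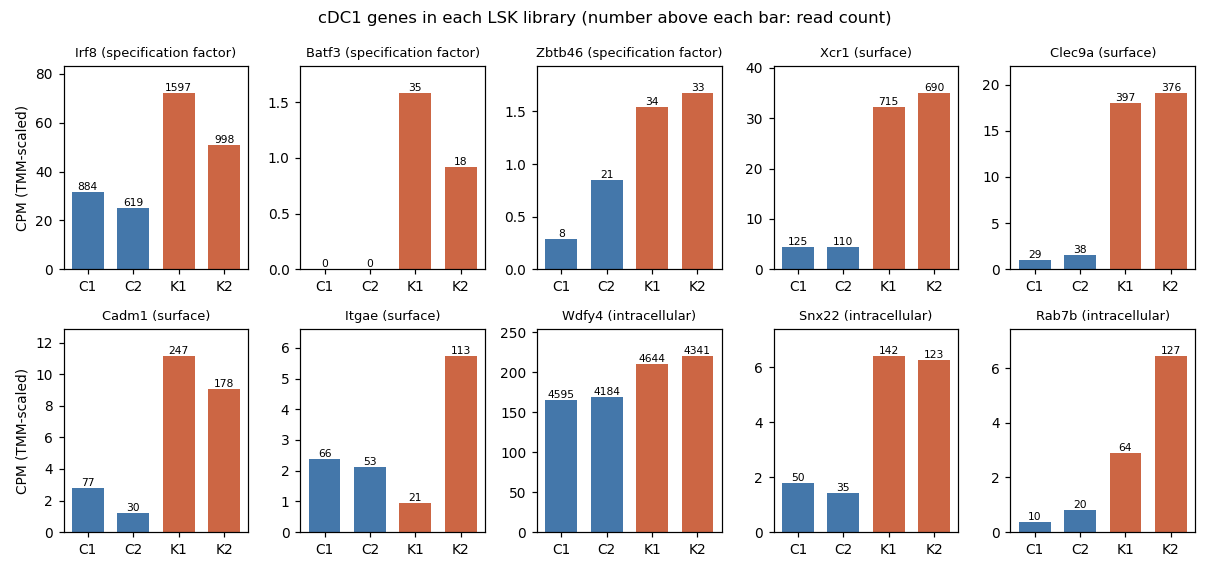
Level of each cDC1 gene in the 4 LSK libraries, as CPM of TMM-scaled reads on an axis from 0, with the read count above each bar; C1 and C2 are the control and K1 and K2 the knockout replicates. Both knockout bars exceed both control bars for every gene except Itgae, where knockout replicate 1 is the lowest bar and knockout replicate 2 the highest.

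Among the specification factors, Irf8 rose about 2-fold from a level well above the floor, while Batf3 rose from no read to a low level. Irf8 had 884 and 619 counts in control and 1597 and 998 in knockout, or 31.8 and 24.9 CPM against 72.2 and 50.7 CPM. Its level rose 2.17-fold (log2 fold change 1.12, SE 0.23, adjusted p = 0.0192). The groups did not overlap, but the knockout replicates stood further apart than the control replicates. Irf8 missed the threshold without control replicate 1 (adjusted p = 0.0526) and without control replicate 2 (adjusted p = 0.154).

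Batf3, whose protein binds DNA together with IRF8 and a Jun protein, had 0 counts in each control library and 35 and 18 counts in the knockout libraries. That is 1.58 and 0.915 CPM in knockout, against a limit of 0.108 and 0.121 CPM that 3 counts would give in the control libraries. Set against that limit per library, the knockout mean was at least 10.9-fold higher (edgeR adjusted p = 0.0253). The call was lost without control replicate 1 (adjusted p = 0.221), control replicate 2 (adjusted p = 0.161) and knockout replicate 1 (adjusted p = 0.0826). Batf3 was the one gene of the set with no read in a whole group.

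Zbtb46, a zinc finger factor that sets conventional dendritic cells apart from other myeloid cells, had 8 and 21 counts in control and 34 and 33 in knockout. The levels were 0.566 ± 0.395 CPM and 1.61 ± 0.099 CPM (SD, n = 2 each), with a log2 fold change of 1.5 (SE 0.91, adjusted p = 0.331). The groups did not overlap, but the control replicates differed more than 2-fold between themselves, and at these counts the difference did not pass the test. Without control replicate 1 the log2 fold change was 0.92, and without control replicate 2 it was 2.45.

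The surface genes Xcr1 and Clec9a rose strongly and evenly across the knockout libraries. Xcr1, the receptor for the chemokine XCL1 made by natural killer cells and killer T cells, had 125 and 110 counts in control and 715 and 690 in knockout. The levels were 4.49 and 4.43 CPM against 32.3 and 35.1 CPM, a 7.55-fold rise (log2 fold change 2.92, SE 0.29, adjusted p = 0.000250). Replicates of each group lay close together and far from the other group. With each library left out in turn the log2 fold change stayed between 2.85 and 2.97.

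Clec9a encodes a receptor that binds actin filaments exposed on dead cells. It had 29 and 38 counts in control and 397 and 376 in knockout, or 1.04 and 1.53 CPM against 17.95 and 19.1 CPM. The rise was 14.4-fold (log2 fold change 3.85, SE 0.40, adjusted p = 0.000378), and with each library left out the log2 fold change lay between 3.59 and 4.13. The exons of Clec9a share 184 bases, 5.59% of its exonic length, with the neighbouring lectin gene Clec1b on the same strand. Clec1b had 1 and 0 counts in control and 16 and 2 in knockout, far fewer than Clec9a. The part of reads from the shared bases in the Clec9a values was not tested.

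Cadm1, an adhesion molecule of the immunoglobulin family that binds CRTAM on activated T cells, had 77 and 30 counts in control and 247 and 178 in knockout. The mean rose from 1.99 ± 1.10 CPM to 10.1 ± 1.502 CPM, a log2 fold change of 2.34 (SE 0.50, adjusted p = 0.0202). Every knockout library exceeded every control library, although the control replicates differed more than 2-fold. The log2 fold change was 3.06 without control replicate 1 and 1.85 without control replicate 2, where the call was lost (adjusted p = 0.116).

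Itgae, the integrin chain CD103 that pairs with the product of Itgb7 and binds E-cadherin, did not follow the other surface genes. It had 66 and 53 counts in control, but 21 in knockout replicate 1 and 113 in knockout replicate 2. The levels were 2.25 ± 0.168 CPM in control and 3.35 ± 3.39 CPM in knockout (log2 fold change 0.57, SE 0.77, adjusted p = 0.695). The knockout libraries lay on opposite sides of both control libraries, and without knockout replicate 2 the log2 fold change was -1.25 (adjusted p = 0.509). Itgae is also made by some T cells, and the T and NK cell list held genes that differed between the knockout libraries. Cd3d, Cd3e and Cd3g had 11, 22 and 4 counts in knockout replicate 1 and 14, 6 and 5 in knockout replicate 2. Gzmb, a granzyme of killer cells, had 46 and 123 counts there, the receptor gene Klrb1c 261 and 514, and the transcription factor gene Tbx21 0 and 26, each higher in knockout replicate 2. Scaled to library size, Nkg7 was lower in that library, at 38.5 and 23.8 CPM, and Cd4 was nearly level, at 24.4 and 24.7 CPM. Eomes (19 and 8 counts), Gzma (2 and 0) and Ncr1 (3 and 0) were also lower there, and Cd5 had 22 and 25 counts. Summed over the 12 genes of the list the level was 80.5 CPM in knockout replicate 1 and 85.2 CPM in knockout replicate 2, against 93.1 to 93.8 CPM in control, and the part of these cells in the Itgae values was not tested.

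**Figure D2:**
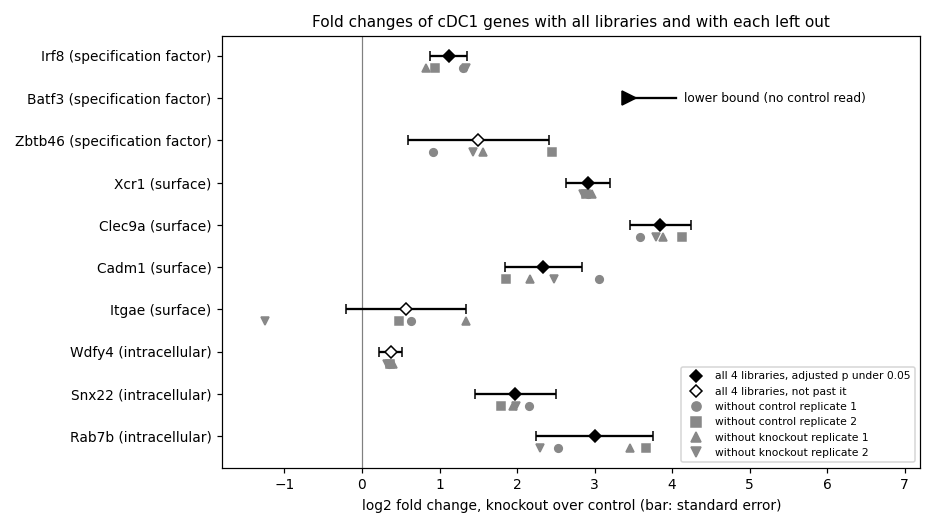
Log2 fold change of each cDC1 gene, knockout over control, from edgeR with all 4 libraries (diamonds, with the standard error as a bar; filled where the adjusted p was under 0.05) and with each library left out (grey symbols). Batf3 is drawn as a lower bound against 3 counts per control library; Xcr1 and Clec9a hardly move, while Itgae turns to -1.25 without knockout replicate 2.

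Among the intracellular genes Snx22 and Rab7b rose from low levels, and Wdfy4, with by far the most reads, did not pass the test. Wdfy4, a large BEACH domain protein needed by cDC1 for cross-presentation of cell-bound antigen and also expressed by B lineage cells, had 4595 and 4184 counts in control and 4644 and 4341 in knockout. The levels were 165 and 168 CPM against 210 and 221 CPM. The groups did not overlap and the replicates were close, but the 1.29-fold difference missed the threshold (log2 fold change 0.37, SE 0.14, adjusted p = 0.142). Of 9 B lineage genes 8 were lower in the knockout, and their part in the Wdfy4 level was not tested.

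Lrrc18, which encodes a leucine-rich repeat protein, lies on the opposite strand within the bounds of Wdfy4 and shares no exonic base with it. It was named after its values were seen. Its counts were 50 and 22 in control and 172 and 173 in knockout, a 6.14-fold rise (log2 fold change 2.62, SE 0.53, adjusted p = 0.0166). The count of the nested gene thus rose while the difference of its host did not pass the test. The strand setting of the counting is not known, and the part of Wdfy4 reads in the Lrrc18 counts was not tested.

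Snx22, a member of the sorting nexin family, had 50 and 35 counts in control and 142 and 123 in knockout. The mean rose from 1.60 ± 0.274 CPM to 6.34 ± 0.121 CPM, a log2 fold change of 1.98 (SE 0.52, adjusted p = 0.0455). This call was the closest to the threshold and was lost when any 1 library was left out, although the log2 fold change then lay between 1.80 and 2.16. No source used here gives the strand setting of the counting, and 825 bases of Snx22 exons, 28.5% of its exonic length, overlap the opposite-strand gene Ppib. Ppib was at 21.0 ± 3.23 CPM in control and 16.3 ± 2.65 CPM in knockout (log2 fold change -0.37, adjusted p = 0.449), a fold change of the opposite sign. The part of reads from the overlap in the Snx22 values was not tested.

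Rab7b, a small GTPase of late endosomes that affects the traffic of Toll-like receptors, had 10 and 20 counts in control and 64 and 127 in knockout. The mean rose from 0.582 ± 0.315 CPM to 4.67 ± 2.52 CPM, a log2 fold change of 2.999 (SE 0.75, adjusted p = 0.0376). Replicates differed more than 2-fold within each group, yet the groups did not overlap. With each library left out the log2 fold change ran from 2.30, without knockout replicate 2, to 3.66, without control replicate 2. The call held without knockout replicate 1 (adjusted p = 0.00742) and was lost without each of the other libraries (adjusted p from 0.0864 to 0.237).

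Each gene was then set against Irf8 in the same library, a ratio that does not depend on library size. Xcr1 had 14.1 and 17.8 counts per 100 Irf8 counts in control and 44.8 and 69.1 in knockout, a 3.50-fold higher ratio. Clec9a had 3.28 and 6.14 counts per 100 Irf8 counts in control and 24.9 and 37.7 in knockout, a 6.73-fold higher ratio. Both receptors thus rose by more than Irf8, and neither ratio overlapped between the groups. The mean difference in log2 ratio was 1.81 for Xcr1 and 2.75 for Clec9a, and stayed within 1.49 to 2.12 and 2.30 to 3.20 when each library was left out.

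The ratio was also higher in both knockout libraries for Cadm1 (2.53-fold), Rab7b (3.62-fold) and Snx22 (1.84-fold). Batf3, with no control read, had 2.19 and 1.80 counts per 100 Irf8 counts in knockout, against limits of 0.339 and 0.485 set by 3 counts in control. The ratio of Wdfy4 was lower in both knockout libraries, at 291 and 435 counts per 100 Irf8 counts against 520 and 676. Its own level was 1.29-fold higher in knockout, less than the 2.17-fold rise of Irf8. The ratios of Zbtb46 and Itgae overlapped between the groups. With 2 libraries against 2 the exact two-sided permutation test cannot give a p below 0.333. That was the value for each ratio that did not overlap (0.429 adjusted over the 9 ratios), so none can reach a threshold of 0.05. Because Irf8 itself rose, a gene of unchanged level would have a lower ratio. The share of all genes with a ratio that did not overlap was not counted.

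**Figure D3:**
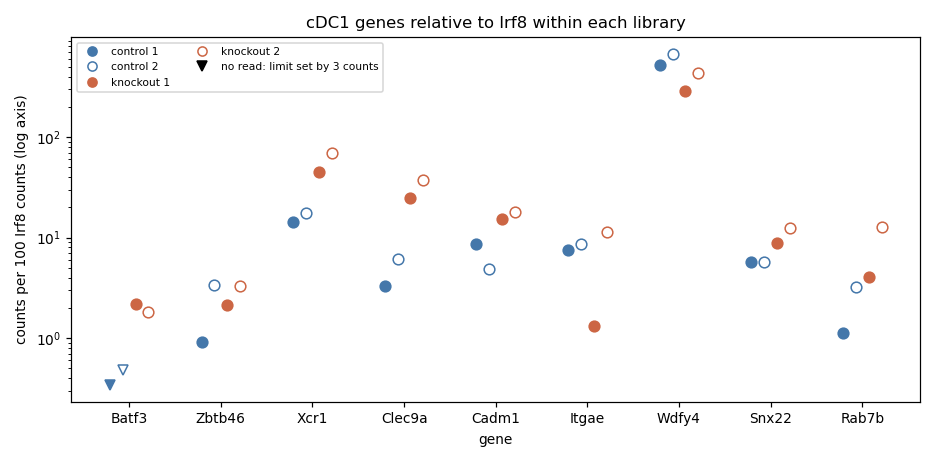
Counts of each cDC1 gene per 100 counts of Irf8 in the same library, on a log axis; blue symbols are control and orange symbols knockout, filled for replicate 1 and open for replicate 2, and triangles give the limit set by 3 counts where there was no read. Xcr1 and Clec9a lie higher in both knockout libraries, Wdfy4 lies lower, and Zbtb46 and Itgae overlap.

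Levels were compared between genes per kilobase of merged exons in the GENCODE annotation. In control Wdfy4 was the highest at 15.8 ± 0.226 CPM per kilobase, followed by Irf8 at 4.02 ± 0.685 and Xcr1 at 1.001 ± 0.010. Snx22 (0.554 ± 0.095), Itgae (0.492 ± 0.037) and Clec9a (0.390 ± 0.105) came next, and neighbours in this run lay within their combined spread. Cadm1 (0.190 ± 0.106), Rab7b (0.126 ± 0.068) and Zbtb46 (0.067 ± 0.046) also overlapped with their neighbours, and Batf3 had no read. The control LSK fraction thus held transcripts of 9 of the 10 genes.

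In knockout the level of Wdfy4 was again highest at 20.4 ± 0.709 CPM per kilobase. Irf8 at 8.71 ± 2.15 and Xcr1 at 7.57 ± 0.434 overlapped and could not be ordered. Irf8 was the higher in knockout replicate 1 (10.2 against 7.26) and Xcr1 in knockout replicate 2 (7.87 against 7.19). Clec9a followed at 5.63 ± 0.248 and Snx22 at 2.19 ± 0.042. Rab7b (1.01 ± 0.544), Cadm1 (0.968 ± 0.144), Batf3 (0.782 ± 0.296) and Itgae (0.730 ± 0.740) could not be ordered beyond their spread, and Zbtb46 was the lowest at 0.189 ± 0.012.

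Windows around annotated start sites of Xcr1, Clec9a, Batf3 and Zbtb46 are shown because the first 3 genes rose and BATF3 and IRF8 bind DNA together. They come from the RefSeq promoter table (GRCm38.p6), which had 9 windows for 7 of the 10 genes, each from 250 bases before to 50 bases after a start site. Cadm1, Itgae and Rab7b had no entry. Letters are given 5′ to 3′ on the gene's strand, and capitals mark a match to any of 3 motifs searched on both strands: TGANTCA (AP-1, bound by BATF and Jun proteins), the ETS-IRF composite element (GGAA, any 2 bases, then GAAA) and the IRF repeat (GAAA, any 2 bases, then GAAA).
Xcr1, chr9:123861980-123862279 (minus strand): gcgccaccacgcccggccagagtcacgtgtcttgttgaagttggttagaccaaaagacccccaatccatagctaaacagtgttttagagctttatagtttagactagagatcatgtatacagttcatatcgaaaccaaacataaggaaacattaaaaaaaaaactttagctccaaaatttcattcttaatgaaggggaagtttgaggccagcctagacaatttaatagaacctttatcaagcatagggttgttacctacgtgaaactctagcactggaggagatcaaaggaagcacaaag
Clec9a, chr6:129408612-129408911 (plus strand): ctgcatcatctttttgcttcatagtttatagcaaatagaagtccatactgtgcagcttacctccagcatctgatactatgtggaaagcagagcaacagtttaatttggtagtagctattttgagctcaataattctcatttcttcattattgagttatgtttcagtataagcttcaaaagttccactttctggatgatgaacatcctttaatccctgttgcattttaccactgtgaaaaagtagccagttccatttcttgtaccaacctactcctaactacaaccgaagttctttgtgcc
Batf3, chr1:191098164-191098463 (plus strand): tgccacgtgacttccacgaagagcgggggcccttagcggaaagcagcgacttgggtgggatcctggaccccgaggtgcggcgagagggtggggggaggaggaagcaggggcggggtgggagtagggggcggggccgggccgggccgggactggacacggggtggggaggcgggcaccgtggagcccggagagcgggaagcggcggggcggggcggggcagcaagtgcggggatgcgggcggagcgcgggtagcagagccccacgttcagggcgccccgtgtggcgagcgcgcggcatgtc
Zbtb46, chr2:181424339-181424638 (minus strand): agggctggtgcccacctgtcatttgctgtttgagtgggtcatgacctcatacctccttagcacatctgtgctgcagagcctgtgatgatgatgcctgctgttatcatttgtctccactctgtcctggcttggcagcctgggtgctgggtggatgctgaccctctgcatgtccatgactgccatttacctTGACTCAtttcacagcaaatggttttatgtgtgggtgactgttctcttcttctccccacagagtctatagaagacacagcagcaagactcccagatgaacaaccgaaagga

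Of the 9 windows, 1 held TGANTCA, that of Zbtb46, where TGACTCA begins 61 bases before the start site. That start site lies 35038 bases inside the GENCODE gene model of Zbtb46, so the window is that of an internal start. The start site of the Batf3 window lies 567 bases inside its gene model, so that whole window is within the gene. Among all 32851 windows of the table, 7.81% held TGANTCA. The ETS-IRF composite element was in none of the 9 windows and in 2.72% of all windows. The IRF repeat was in none of the 9 windows and in 3.44% of all windows. No motif that joins an AP-1 site to an IRF site was searched, so the windows were not scanned for a joint BATF3 and IRF8 site. The absence of a match says only that the searched letters are not in these windows.

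Other genes linked to cDC1 were taken from a list of 22 that excludes the 10 genes above, and all 22 were tested. Of these 8 were higher and none lower, where 3.77% of all genes tested were higher. Their median log2 fold change was 1.42, and between 6 and 9 were higher when each library was left out. Tlr11, the receptor for a parasite actin-binding protein, had 38 and 39 counts in control and 686 and 650 in knockout (log2 fold change 4.44). Sept3, a septin, had 39 and 24 counts against 353 and 644 (4.35). Naaa, an acid amidase of lysosomes, rose from 7.88 ± 1.44 to 39.8 ± 0.200 CPM (2.34), and Tlr3, a receptor for double-stranded RNA, from 4.24 ± 0.207 to 25.8 ± 6.69 CPM (2.60). The other higher genes were Btla, Gpr33, Ifi205 and Plekha5. Of the higher genes Gpr33, with 2 and 1 counts in control and 37 and 120 in knockout, passed the filter through the knockout libraries alone. Cd8a, the coreceptor found on cDC1 of lymphoid organs, had 21 and 16 counts in control and 23 and 36 in knockout (log2 fold change 1.03, adjusted p = 0.492). Cd24a (-0.19) and Tlr12 (-0.15) did not pass either.

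Of 16 genes for regulators and cytokine receptors of dendritic cell development, 2 were higher and none lower (median log2 fold change 0.28), where 3.77% of all genes tested were higher. Id2, an inhibitor of E proteins that cDC1 need, had 166 and 160 counts in control and 680 and 468 in knockout. Its mean rose from 6.20 ± 0.338 CPM to 27.3 ± 4.93 CPM (log2 fold change 2.14, adjusted p = 0.00261). Bcl6, a repressor that supports cDC1 development, rose from 9.60 ± 1.05 to 34.8 ± 8.67 CPM (1.86, adjusted p = 0.00418). Other factors did not follow: Nfil3, which acts upstream of Id2, was at 7.65 ± 0.562 CPM in control and 6.005 ± 0.013 CPM in knockout (-0.35, adjusted p = 0.617), and Zeb2, whose product opposes cDC1 fate, at 188 ± 11.6 and 211 ± 30.5 CPM (0.17, adjusted p = 0.552). Batf, a relative of Batf3 that can stand in for it, was at 26.0 ± 9.32 and 19.1 ± 10.2 CPM (-0.44, adjusted p = 0.494). Ikzf1 (-0.47), Irf4 (-0.71, adjusted p = 0.129), Spi1 (-0.55, adjusted p = 0.159) and Csf2rb (0.56) did not pass. Of the 16 genes 9 had a positive and 7 a negative fold change. DESeq2 called 2 regulators higher and 1 lower, and the fit with no filter on low counts called 4 higher and 2 lower. The number of regulators called changed when either knockout library was left out, as did the number over all genes tested. Without knockout replicate 1 it changed in both directions.

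No binding partner of the encoded proteins was called higher. Of 7 tested, Jun, a partner of BATF3, was the one that passed, falling from 85.4 ± 25.1 to 40.2 ± 17.3 CPM (log2 fold change -1.09, adjusted p = 0.0451). It missed the threshold without control replicate 2 (adjusted p = 0.278), without knockout replicate 1 (adjusted p = 0.0536) and with upper quartile factors (adjusted p = 0.0581). Junb (-0.77, adjusted p = 0.198) and Actb (-0.50, adjusted p = 0.121) did not pass. Itgb7, the partner chain of the Itgae product, was at 16.7 ± 5.18 and 25.5 ± 2.13 CPM (0.61, adjusted p = 0.216). In knockout replicate 1 Itgb7 lay above both controls and Itgae below them, and in knockout replicate 2 both genes lay above. The ligand genes Xcl1 and Cdh1 and the receptor gene Crtam had at most 24 counts in any library.

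Marker lists of other dendritic cells and of other lineages were read beside these values, and their counts stand against the same 3.77% of all genes tested that were higher and 3.01% that were lower. Of 8 MHC class II genes, 5 were higher (median log2 fold change 2.39), with Ciita, the master activator of the class, rising from 3.70 ± 0.003 to 16.6 ± 0.390 CPM (2.17, adjusted p = 0.00491). Their summed level was 239 to 249 CPM in control and 915 to 1127 CPM in knockout. Of 10 pan-dendritic genes, Amica1, an adhesion molecule, was the one that passed (2.52, adjusted p = 0.00991), and it missed the threshold without control replicate 1. Itgax, which encodes CD11c, was at 5.66 ± 3.33 and 8.69 ± 4.60 CPM (0.62, adjusted p = 0.486).

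No tested gene of the cDC2, plasmacytoid or mature dendritic cell lists passed, of 8, 10 and 6 (median log2 fold changes 0.34, 0.10 and 0.43). Among cDC2 genes, Sirpa was at 70.5 ± 0.682 and 54.9 ± 4.88 CPM (-0.36, adjusted p = 0.237), Cd209a had 2 or 3 counts in every library and Clec4a4 had 0. Siglech, a plasmacytoid marker, had 44 and 3 counts in control and 202 and 62 in knockout (2.83, adjusted p = 0.0856). Among genes of activated dendritic cells, Cd274 was at 55.7 ± 1.77 and 83.5 ± 17.9 CPM (0.58, adjusted p = 0.0917), and Il12b and Ccl22 had 0 counts. At an unadjusted p under 0.05 there were 1, 1 and 1 genes of these lists, and DESeq2 called 0, 1 and 0. The share of all genes with an unadjusted p under 0.05 was not counted. Siglech passed without control replicate 1 (adjusted p = 0.0134) and without knockout replicate 2 (adjusted p = 0.00717). Without knockout replicate 1, 2 plasmacytoid genes were lower and 1 gene of activated cells was higher, and no cDC2 gene passed with any 1 library left out. Whether cDC1 genes differ from these lists was not tested.

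Lists of other lineages differed in direction, and the part of these lineages in the cDC1 results was not tested. Of 8 mast cell genes 6 were higher (median log2 fold change 2.75), with summed levels of 151 to 153 CPM in control and 272 to 407 CPM in knockout. Among them Cma1, with 25 and 1 counts in control and 653 and 242 in knockout, did not reach the filter level in both control libraries. All 11 tested monocyte and macrophage genes had a positive fold change and 1, Itgam, passed, with 141 to 150 against 182 to 218 CPM in sum. The B lineage genes, with a median of -2.67, summed to 465 and 545 CPM in control and to 108 and 81.0 CPM in knockout. Of 7 neutrophil genes 4 were higher and 1 lower, with sums of 1668 and 1684 against 1676 and 1402 CPM. No gene passed among 8 tested T and NK cell genes. Of these genes DESeq2 called 2, and 4 had an unadjusted p under 0.05, a share not counted over all genes. Up to 3 of them passed when a library was left out, the most without knockout replicate 1. With each library left out, 5 MHC class II, 5 to 7 mast cell and 7 to 9 B lineage genes passed. The number of higher neutrophil genes then ran from 0, without control replicate 1, to 5, and that of monocyte genes from 0, without either control library, to 2. Irf8 is also expressed by monocyte and B cell progenitors.

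**Figure D4:**
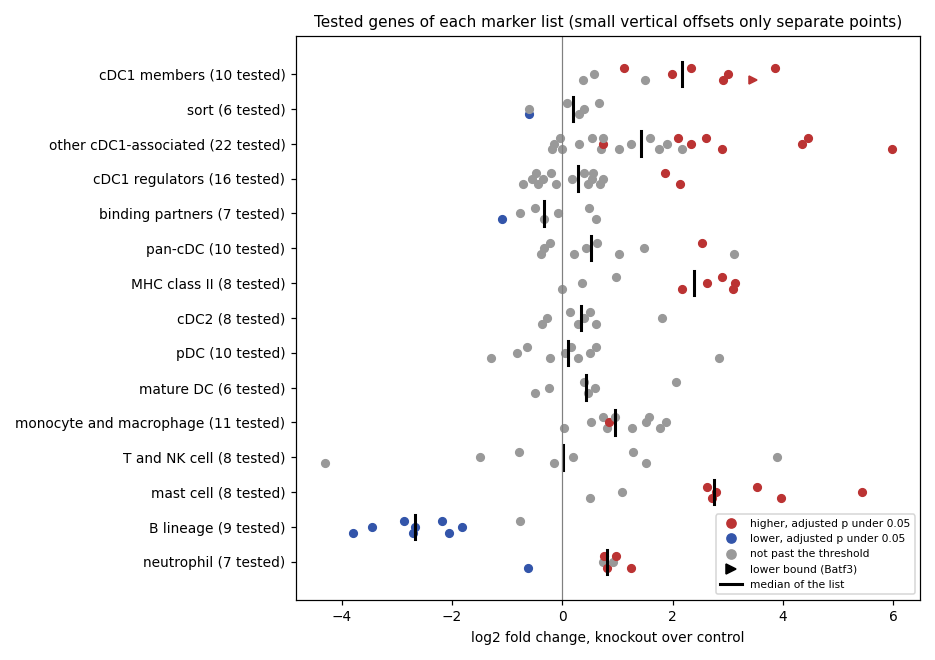
Log2 fold change, knockout over control, of every tested gene in each marker list, with red points higher and blue points lower at an adjusted p under 0.05 and a black bar at the list median; Batf3 is drawn at its lower bound. The cDC1, MHC class II and mast cell lists lie to the right with medians of 2.16, 2.39 and 2.75, the B lineage list lies to the left at -2.67, and the cDC2 and plasmacytoid lists centre near 0.34 and 0.10.

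The genes with the most similar profile over the 4 libraries were found by the root mean square distance between centred log2 CPM values, among 11351 genes with a mean of at least 2 CPM. For Xcr1 they were Sdc2 (0.104), Mt1 (0.119) and the MHC class II gene H2-Eb1 (0.134). For Clec9a they were Sulf2 (0.144), Lifr (0.167) and Gpr141 (0.182), and for Irf8 Ccdc73 (0.051), Padi2 (0.055) and Ryr1 (0.056). With 4 libraries many genes share such a profile, so the likeness describes these libraries alone.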

How the data were processed

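RNA was sequenced from sorted LSK cells in 4 libraries, 2 per genotype, grouped and numbered by their titles. The authors deposited raw read counts per gene symbol. TopHat2 2.1.1, SAMtools 1.5, Picard 2.9.4, HTSeq 0.8.0 and build mm10 are named, per the submitters' processing notes. No source used here gives the gene annotation or strand setting.

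Counts were tested with edgeR 4.0.16 in R 4.3.3, using TMM factors, filterByExpr (minimum count 10, total 15) and the quasi-likelihood test without covariates, with Benjamini-Hochberg adjustment over 14140 genes and a threshold of 0.05. The biological coefficient of variation was 0.266. A floor of 3 counts corresponds to 0.108 to 0.152 CPM and covers counting error only. Positions and lengths came from GENCODE M21 (mm10). The ratio to Irf8 used a pseudocount of 0.5. On simulated counts the edgeR step, with 13864 genes tested, found 42 of 100 genes shifted by 2-fold, 85 of 100 shifted by 4-fold and 8 false ones among 135 calls. DESeq2 1.42.0, other factors, filters, a replicate block and each library left out were the alternatives.

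The cDC1 genes and the marker lists were chosen with earlier results of these data known. Named are all 10 genes, up to 4 genes per list with the smallest p, and the 3 nearest profiles of Irf8, Xcr1 and Clec9a. Other genes, such as Lrrc18, Ppib, Clec1b, Cd8a, Zeb2 and Nfil3, were chosen after their values were seen.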

Additional observations from a re-analysis of the deposited data

How the results depend on the processing

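All 7 higher cDC1 genes passed with DESeq2, RLE factors, upper quartile factors, no filter, Rn45s left out and the replicate block, and 6 passed with a minimum count of 50, which removed Batf3 from the test. The number ran from 2 to 5 when each library was left out. Over all genes 958 passed (533 higher, 425 lower), against 1674 with DESeq2 and 2043 with no filter, and between 255 and 2158 with each library left out. With upper quartile factors 664 were higher and 289 lower. Of the genes in the marker lists 38 passed, against 61 with no filter.

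The replicate block gave 2626 genes over all and 65 in the marker lists. Replicate numbers are not stated to pair the libraries, and the differences between replicates correlated at 0.0949 across genes between the genotypes. That value rests on a single difference per genotype, so it cannot tell whether the libraries were paired.

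The sign turned in 7 values that had not passed a test. With each library left out, the log2 fold change ran from -1.25 to 1.34 for Itgae, from -0.022 to 0.16 for Kit, from -0.19 to 0.66 for Ly6a, from -0.038 to 0.71 for Cd86 and from -0.91 to 2.58 for Traf1. The log2 ratio to Irf8 ran from -0.37 to 1.49 for Zbtb46, with the sign turned without control replicate 1, and from -2.58 to 0.50 for Itgae, with the sign turned without knockout replicate 1. Those of Xcr1 and Clec9a ran from 1.49 to 2.12 and from 2.30 to 3.20. The cause was not tested. Over all alternatives, 673 fold changes of single genes kept their sign and side of the threshold, 32 lost a call, 52 gained one and 5 turned sign. With 17787425 to 29863594 counts per library, Batf3, Zbtb46 and Rab7b rested on 0 to 21 counts in control, which limits their folds.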
